A study of Mus musculus with 13 samples.

Results

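The glucocorticoid receptor gene Nr3c1 was examined in mouse liver endothelial cells together with Hsd11b1, which encodes a steroid-activating enzyme, and 8 genes known as targets of the receptor: Fkbp5, Zbtb16, Tsc22d3, Klf9, Map3k6, Ddit4, Sgk1 and Dusp1. The 10 genes were selected by symbol among the 24421 in the table, and they were chosen on earlier values of the same comparison of germ-free with conventionally raised mice. Their differences in that comparison are therefore given as a description, with no p-value and with nothing read from them. All 10 passed the filter on low counts, as did 13915 symbols in all.

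RNA sequencing was carried out on 7 libraries from wild type mice labelled CONV-R, conventionally raised and so carrying a microbiota, and on 6 from wild type mice labelled GF, germ-free. The labels give no treatment, age, sex or isolation method and do not say whether a library is 1 animal, so the spread between libraries may be partly technical. Libraries held 7590320 to 32869515 counts in CONV-R (numbered 1 to 7) and 23407168 to 35478115 in GF (8 to 13). A number in the library name is 10 for CONV-R 1 to 4, 9 for CONV-R 5 to 7 and 6 for every GF library. What it stands for is not stated, and across the groups it cannot be told apart from the microbiota.

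Glucocorticoids are adrenal steroids that enter cells freely. In many cells the enzyme encoded by Hsd11b1 regenerates the active hormone from its inert 11-keto form. Bound by hormone, the receptor leaves a chaperone complex, moves to the nucleus and activates or represses genes, among them feedback regulators of its own pathway and inhibitors of inflammatory signalling. Liver endothelium lines the sinusoids, between blood and the hepatocytes that answer the same hormone with genes of glucose and amino acid metabolism.

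The libraries also held transcripts of other cells. Summed endothelial identity markers ranged from 22384 to 38142 CPM (counts scaled to the same total in every library) across CONV-R libraries and 38595 to 39970 CPM across GF libraries, with 7 of 12 higher in GF and none at 0. Hepatocyte markers summed to 1553 to 11005 CPM in CONV-R, with a median of 3394, and to 860 to 1399 CPM in GF, with a median of 1154, so the groups did not overlap. All 15 hepatocyte markers tested were lower in GF, as were 7 of 9 neutrophil and monocyte markers, 6 of 7 B and plasma cell markers and 7 of 10 immediate early genes. Of 7 cholangiocyte markers 4 were higher. Kupffer cell markers summed to 2398 to 7555 CPM in CONV-R and 2266 to 3697 CPM in GF. CONV-R 1 had the highest sums of hepatocyte, T and NK cell and B cell markers, and CONV-R 7 those of neutrophil markers and immediate early genes.

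The receptor transcript was at nearly the same level in both groups. Nr3c1 ranged from 201 to 266 CPM in CONV-R (median 220.4; here and below CPM of the library scaled by the trimmed mean of M values) and from 206 to 226 CPM in GF (median 211). Every GF value lay within the CONV-R range. The mean was 223 ± 21.2 CPM (SD, n = 7) in CONV-R and 213 ± 7.68 CPM (SD, n = 6) in GF, a log2 fold change of -0.06 ± 0.06 (SE), with an interval of 1.96 SE from -0.19 to 0.06. Libraries differed less for the receptor than for any of the other 9 genes, with a coefficient of variation of 9.52% in CONV-R and 3.60% in GF.

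**Figure D1:**
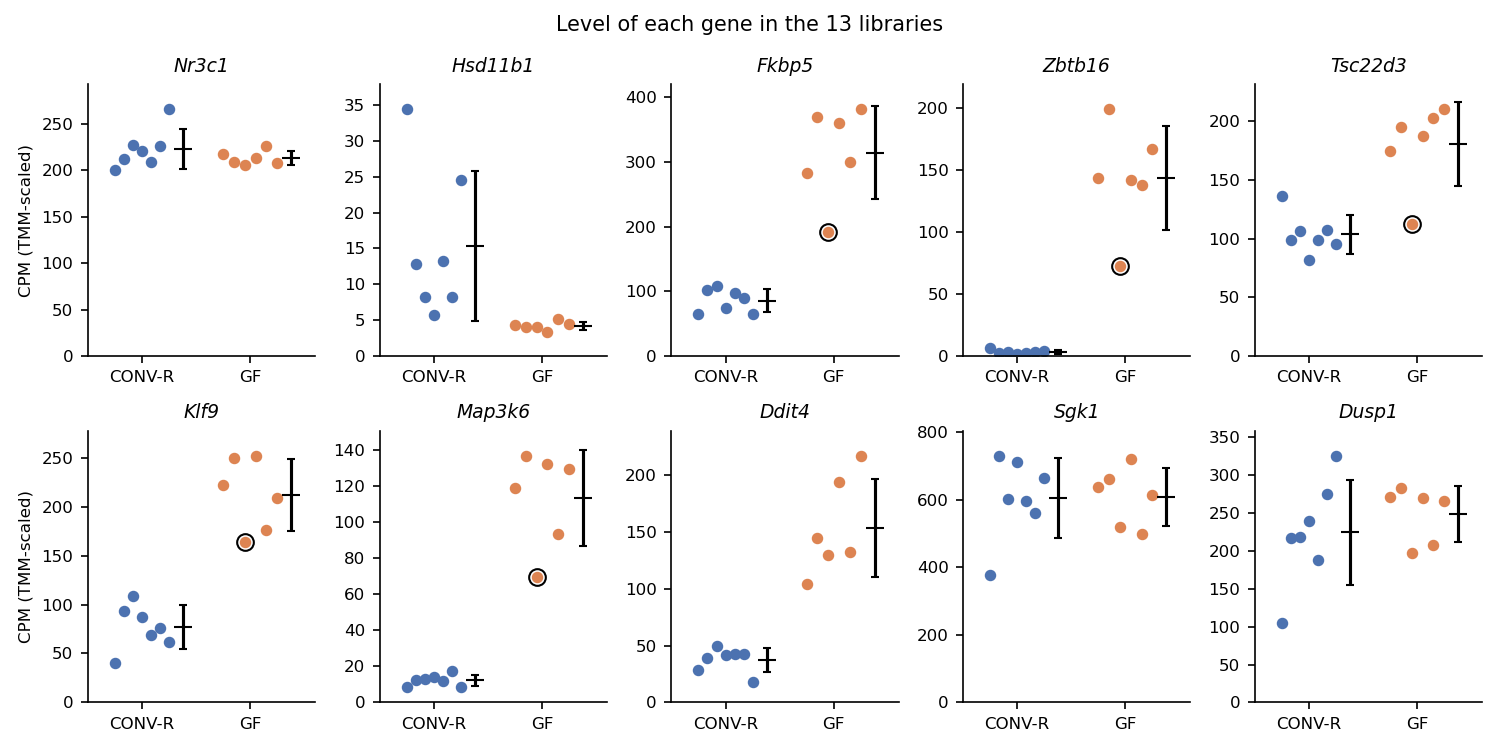
Level of each of the 10 genes in every library, in CPM on a linear axis that starts at 0. Points are libraries, bars are mean ± SD of 7 CONV-R and 6 GF libraries, and GF 10 is circled where it is the lowest GF library of a gene higher in GF. Fkbp5, Zbtb16, Klf9, Map3k6 and Ddit4 have every GF point above every CONV-R point, whereas Nr3c1, Sgk1 and Dusp1 overlap.

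Hsd11b1 (chromosome 1, 193221640 to 193264045, RefSeq GRCm38.p6, the build of mm10) was the 1 gene of the 10 that was lower in GF. It ranged from 5.77 to 34.4 CPM in CONV-R (median 12.8) and from 3.32 to 5.11 CPM in GF (median 4.17). All 6 GF libraries lay below all 7 CONV-R libraries, and CONV-R 1 and CONV-R 7, at 34.4 and 24.5 CPM, stood highest. The log2 fold change was -1.86 ± 0.37 (SE), from 15.3 ± 10.4 CPM (SD, n = 7) to 4.21 ± 0.588 CPM (SD, n = 6). In the GENCODE M21 annotation the gene overlaps Lamb3, and reads could be shared if strand was not used. In bulk RNA, fewer cells of a type and less RNA per cell cannot be told apart.

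Within CONV-R the order of libraries by Hsd11b1 was the order by summed hepatocyte markers. This relation was examined after the values had been seen. Pearson's r of the log2 levels was 0.956 over the 7 CONV-R libraries (exact two-sided permutation p = 9.92e-04, adjusted over the 2 groups 0.00198), and Spearman's rho was 1 (exact p = 3.97e-04, adjusted 7.94e-04). Without CONV-R 1 and 7, the libraries farthest from the median of the markers, r was 0.874 over 5 libraries. In the 6 GF libraries, where the markers spanned a narrower range, r was 0.175 (exact permutation p = 0.761) and rho 0.257 (exact permutation p = 0.658). The number groups within CONV-R hold 4 and 3 libraries, too few for a correlation of their own. With the hepatocyte marker level as a covariate in the edgeR model, the difference in Hsd11b1 between GF and CONV-R was -0.12 ± 0.23 on the log2 scale. The marker levels of the groups did not overlap, so that model compares the groups beyond the range they share.

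**Figure D2:**
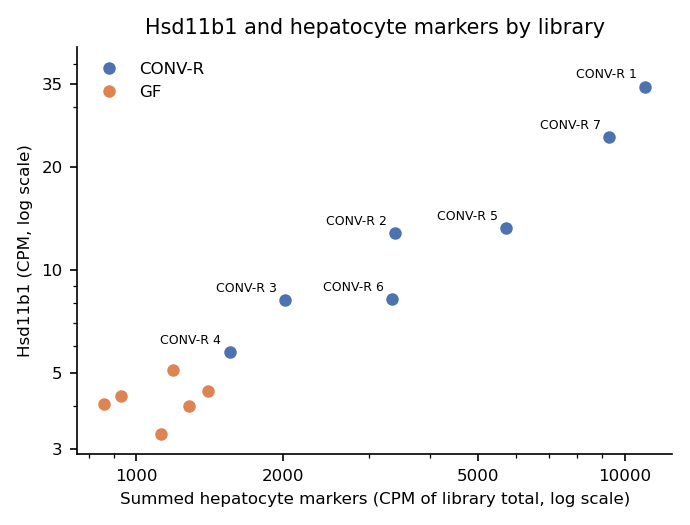
Hsd11b1 (CPM, log scale) against the sum of 16 hepatocyte markers (CPM of the library total, log scale), 1 point per library. The CONV-R points climb from CONV-R 4, with 5.77 CPM of Hsd11b1, to CONV-R 1 with 34.4, and the 6 GF points lie together at the lower left.

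Of the 8 targets, 6 were at a higher level in GF. Fkbp5 (chromosome 17, 28398753 to 28486149) encodes a co-chaperone that lowers the hormone affinity of the receptor and is a feedback regulator of it. It was at 64.5, 101.3, 107.4, 73.9, 97.96, 90.0 and 64.5 CPM in CONV-R 1 to 7 and at 283, 370, 192, 360, 299 and 381 CPM in GF 8 to 13. The lowest GF library, GF 10, was still above the highest CONV-R library, CONV-R 3. The mean went from 85.7 ± 17.9 CPM (SD, n = 7) to 314 ± 72.1 CPM (SD, n = 6), a log2 fold change of 1.87 ± 0.17 (SE), or 3.67-fold.

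Zbtb16 (chromosome 9, 48651797 to 48836225) encodes a zinc finger transcriptional repressor also called PLZF. It was at 6.74, 2.13, 3.01, 1.76, 1.998, 3.14 and 3.58 CPM in CONV-R 1 to 7, and at 143, 199, 72.3, 142, 138 and 167 CPM in GF 8 to 13. The nearest libraries of the groups were CONV-R 1 and GF 10, so the ranges lay far apart. The mean went from 3.19 ± 1.70 CPM (SD, n = 7) to 143.5 ± 41.7 CPM (SD, n = 6), a log2 fold change of 5.51 ± 0.33 (SE) or 45.5-fold. Zbtb16 is also known from innate-like T and NK cells. The 11 markers of those cells summed to 78.8 to 384 CPM in CONV-R and 78.6 to 234 CPM in GF. CONV-R 1 had both the highest marker sum and the highest Zbtb16 of its group, whereas the GF library with the highest Zbtb16, GF 9, was not the one with the highest marker sum, GF 8. The part of these cells in the Zbtb16 level was not tested.

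Klf9 (chromosome 19, 23141226 to 23168129) encodes a Krüppel-like transcription factor, and Tsc22d3 (chromosome X, 140539528 to 140600522) encodes GILZ, a leucine zipper protein that restrains inflammatory transcription factors. Klf9 ranged from 40.5 to 109 CPM in CONV-R (median 75.6) and from 164 to 252 CPM in GF (median 215), without overlap. Tsc22d3 ranged from 81.5 to 136 CPM in CONV-R (median 98.7) and from 112 to 210 CPM in GF (median 191). For Tsc22d3, 5 of the 6 GF libraries exceeded every CONV-R library, and GF 10 lay below CONV-R 1. The log2 fold changes were 1.47 ± 0.19 (SE) for Klf9 and 0.80 ± 0.14 for Tsc22d3, or 2.77-fold and 1.74-fold.

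Map3k6 (chromosome 4, 133237979 to 133252929) encodes a stress-activated protein kinase, and Ddit4 (chromosome 10, 59949675 to 59951770) encodes REDD1, an inhibitor of mTORC1. Map3k6 was at 8.82, 12.7, 13.1, 13.95, 11.9, 17.2 and 8.56 CPM in CONV-R 1 to 7, and at 119.1, 137, 69.4, 132, 93.2 and 130 CPM in GF 8 to 13. Ddit4 ranged from 17.7 to 49.3 CPM in CONV-R (median 42.2) and from 104 to 217 CPM in GF (median 139). Neither gene overlapped between the groups. The log2 fold changes were 3.21 ± 0.19 (SE) for Map3k6, or 9.24-fold, and 2.04 ± 0.22 for Ddit4, or 4.11-fold.

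Sgk1 and Dusp1, targets that many other stimuli also induce, did not separate the groups. Sgk1 (chromosome 10, 21882184 to 21999903) encodes a kinase that regulates ion transport, and it ranged from 377 to 731 CPM in CONV-R (median 604) and from 499 to 721 CPM in GF (median 626). Dusp1 (chromosome 17, 26505591 to 26508472) encodes a phosphatase that inactivates MAP kinases, and it ranged from 105 to 326 CPM in CONV-R (median 218) and from 197 to 283.5 CPM in GF (median 268). All GF values of both genes lay within the CONV-R range. The log2 fold changes were 0.01 ± 0.14 (SE) for Sgk1 and 0.15 ± 0.20 for Dusp1, with intervals of 1.96 SE from -0.27 to 0.28 and from -0.24 to 0.54. Immediate early genes, which like Dusp1 answer many stresses, summed to 433 to 1468 CPM in CONV-R and 308 to 389 CPM in GF. CONV-R 7 had the highest sum and the highest Dusp1, and the part of that response in Dusp1 was not tested.

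**Figure D3:**
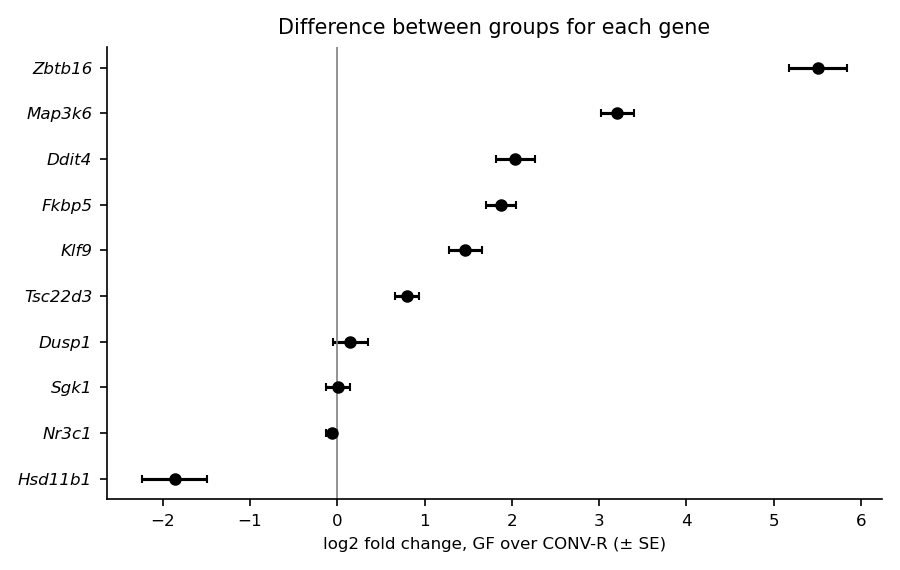
Log2 fold change of each of the 10 genes, GF over CONV-R, from the edgeR model of 13 libraries, with bars of ± SE and a line at 0. Zbtb16 lies farthest to the right at 5.51, Hsd11b1 alone lies to the left at -1.86, and Nr3c1, Sgk1 and Dusp1 lie near 0.

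In counts, 6 of the 10 genes passed the edgeR threshold upward (adjusted p under 0.05), beside 11.4% of all 13915 genes tested, and 1 passed downward, beside 12.7%. In either direction it was 7, beside 24.1%. Every GF library lay above every CONV-R library for 5 genes, beside 5.94% of all genes, and below for 1, beside 4.32%. The median log2 fold change was 1.13 over the 10 genes and -0.01 over all genes tested. In all of 25 alternatives 6 of the 10 passed upward, whereas the count over all genes, 3357, was 2221 without GF 9. With the hepatocyte marker level as a covariate the log2 fold change was 0.77 ± 0.20 (SE) for Klf9, 1.56 ± 0.28 for Fkbp5, 1.57 ± 0.34 for Ddit4, 2.71 ± 0.27 for Map3k6, 1.02 ± 0.22 for Tsc22d3 and 6.28 ± 0.52 for Zbtb16. Because the genes were picked with this comparison in view, nothing is read from these counts.

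Set against exon length, the order of the transcripts changed between the groups. Sgk1 was the most abundant in both, at 124 ± 24.2 CPM per kb of exon in CONV-R (SD, n = 7) and 124 ± 17.4 in GF (SD, n = 6), and Dusp1 followed in CONV-R at 67.8 ± 20.9. Nr3c1 came next in CONV-R at 29.0 ± 2.76 CPM per kb, above Tsc22d3 at 23.8 ± 3.85 and Ddit4 at 21.3 ± 6.09, which did not differ beyond their spread. Klf9 at 15.9 ± 4.67, Fkbp5 at 9.05 ± 1.89, Hsd11b1 at 3.60 ± 2.45, Map3k6 at 2.68 ± 0.653 and Zbtb16 at 0.605 ± 0.322 CPM per kb came below. In GF, Ddit4 at 87.6 ± 24.5 and Dusp1 at 75.3 ± 11.2 CPM per kb did not differ beyond their spread, nor did Klf9 at 44.1 ± 7.61 and Tsc22d3 at 41.5 ± 8.20. Zbtb16, the lowest of the 10 in CONV-R, reached 27.2 ± 7.90 CPM per kb in GF, beside Nr3c1 at 27.8 ± 0.999, Fkbp5 at 33.2 ± 7.61 and Map3k6 at 24.6 ± 5.78, whereas Hsd11b1 was last at 0.989 ± 0.138.

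Promoter sequences were matched for 8 of the 10 genes, all but Nr3c1 and Zbtb16, in a table of RefSeq sequences of GRCm38.p6, as 15 windows from 250 bases before to 50 after a transcript start. The canonical element bound by a pair of receptor molecules, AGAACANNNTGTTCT, was searched on both strands, along with a relaxed form, GNACANNNTGTNC, which every canonical match also meets, and the hexamer AGAACA, which lies within the canonical element and is bound by a single molecule. Of 32851 windows of that length over all genes, 0.00913% held the canonical element, 0.475% the relaxed form and 19.0% the hexamer. These shares are per window, whereas a gene with several windows is counted below if any of them matched. Among the 10 genes, Sgk1 held the canonical element in the window of 1 of its starts, Map3k6 held the relaxed form, and Sgk1 and Tsc22d3 held the hexamer. The Sgk1 element AGAACAGAATGTTCT lay 189 to 175 bases before the start, and the Map3k6 match GCACAGGCTGTTC 181 to 169 bases before it. These windows are shown because Sgk1 had the canonical element without a difference between the groups while Map3k6 differed 9.24-fold. Both windows lie inside the spans given above for their genes. The starts used are thus internal, and neither match lies upstream of the whole gene. In each, capitals mark matches to the relaxed or canonical element and to the hexamer on either strand, and a match describes these letters only, not binding.
Sgk1 (chr10:21993640-21993939, plus strand): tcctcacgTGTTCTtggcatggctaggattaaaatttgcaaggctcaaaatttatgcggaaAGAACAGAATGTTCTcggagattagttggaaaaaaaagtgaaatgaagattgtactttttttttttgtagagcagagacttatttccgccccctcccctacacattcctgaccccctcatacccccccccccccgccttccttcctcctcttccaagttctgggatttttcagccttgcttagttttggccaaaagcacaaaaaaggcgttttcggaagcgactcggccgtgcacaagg
Map3k6 (chr4:133240568-133240867, plus strand): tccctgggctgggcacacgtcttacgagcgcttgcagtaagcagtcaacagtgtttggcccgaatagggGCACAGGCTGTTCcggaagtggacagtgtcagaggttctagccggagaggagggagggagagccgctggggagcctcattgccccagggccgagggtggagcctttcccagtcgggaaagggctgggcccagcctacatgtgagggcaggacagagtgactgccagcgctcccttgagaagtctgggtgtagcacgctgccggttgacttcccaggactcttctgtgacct

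The name number 10 against 9 divides CONV-R without using the comparison that chose the genes. None of the 10 genes passed in the edgeR quasi-likelihood test of the 4 libraries against the 3, in which 0 of 13809 genes passed (0.00%). At an unadjusted p under 0.05 there were 865 of the 13809 genes and none of the 10. DESeq2 called 144 genes and limma-voom 1292, again none of the 10. Without CONV-R 1 the edgeR test called 690 genes and without CONV-R 5 it called 13, none of them among the 10. At shares this small few or none of 10 genes would be called, so nothing is read from their absence. The largest of the 10 differences was that of Dusp1, at -0.44 ± 0.30 (SE) on the log2 scale (edgeR adjusted p = 0.875). Fkbp5 differed by 0.04 ± 0.22, Zbtb16 by 0.23 ± 0.52 and Nr3c1 by -0.13 ± 0.12.

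Each number group of CONV-R was also set alone against GF. The log2 fold change against number 10 and number 9 was 1.86 and 1.89 for Fkbp5, 5.45 and 5.64 for Zbtb16, and 3.22 and 3.19 for Map3k6. It was -1.85 and -1.89 for Hsd11b1, 0.77 and 0.83 for Tsc22d3, 1.36 and 1.62 for Klf9, 1.95 and 2.16 for Ddit4, and -0.01 and -0.14 for Nr3c1. For Dusp1 it was 0.35 against number 10 and -0.09 against number 9, so its sign depended on the CONV-R libraries used.

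Library GF 10 stood low for the targets that were higher in GF. It was the lowest GF library for 7 of the 10 genes, including 5 of the 6 that passed upward (83.3%). It was also the lowest for 7 of 9 other induced targets called higher (77.8%), as against 34.2% of all 1593 genes called higher and 19.5% of all genes tested. Relative to the mean of the other 5 GF libraries it held 56.6% of Fkbp5, 45.8% of Zbtb16, 57.8% of Tsc22d3, 56.8% of Map3k6, 74.1% of Klf9 and 81.8% of Ddit4. It also held 75.8% of Dusp1 and 82.9% of Sgk1, which did not separate the groups, and 95.8% of Nr3c1 and 94.5% of Hsd11b1. This was noticed after the values had been seen and was not tested. Its depth was 34253545 counts, and its hepatocyte, T and NK cell and endothelial marker sums lay within the range of the other GF libraries. Without GF 10 the log2 fold change was 1.97 for Fkbp5, 5.64 for Zbtb16, 0.90 for Tsc22d3 and 3.31 for Map3k6.

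Co-variation with Fkbp5 was tested within each group, where the difference between groups plays no part. Of 9 relations in each group, none passed after Benjamini-Hochberg adjustment, by Pearson's r or by Spearman's rho. In GF, r with Fkbp5 was 0.931 for Zbtb16 (exact two-sided permutation p = 0.0194, adjusted 0.0875; rho 0.771), 0.929 for Map3k6 (exact p = 0.0139, adjusted 0.0875; rho 0.771) and 0.922 for Tsc22d3 (exact p = 0.0292, adjusted 0.0875; rho 0.829). Without GF 10 and GF 13, the libraries farthest from the median of Fkbp5, a choice that narrows the range of Fkbp5, r over 4 libraries was 0.629, 0.708 and 0.343, so the relation with Tsc22d3 rested on those libraries. For Ddit4 r was 0.610 (exact permutation p = 0.178, adjusted 0.229; rho 0.886) and 0.813 without them, and for Klf9 it was 0.765 (exact permutation p = 0.0597, adjusted 0.108; rho 0.486) and 0.714 without them. Dusp1 and Sgk1, which did not separate the groups, had r of similar size. For Dusp1 it was 0.784 (exact permutation p = 0.0569, adjusted 0.108; rho 0.429) and 0.493 without those libraries. For Sgk1 it was 0.649 (exact permutation p = 0.154, adjusted 0.229; rho 0.371) and 0.604 without them.

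In CONV-R, r with Fkbp5 was highest for Ddit4, at 0.785 (exact permutation p = 0.0145, adjusted 0.130; rho 0.750), and for Klf9, at 0.746 (exact permutation p = 0.0474, adjusted 0.213; rho 0.857). Without CONV-R 1 and 7 these were 0.306 and 0.288 over 5 libraries. For the genes with the highest r in GF, r in CONV-R was -0.544 for Zbtb16, 0.637 for Map3k6 and -0.131 for Tsc22d3. Without CONV-R 1 and 7 it was 0.498, -0.382 and 0.810, so each sign depended on those libraries. For Hsd11b1 r was -0.570, and 0.691 without them. Over all 7 CONV-R libraries 5 relations with Fkbp5 were above 0, and in GF 8 were. CONV-R 1, the library richest in hepatocyte and lymphocyte transcripts, had the lowest Nr3c1, Klf9, Sgk1 and Dusp1 of its group and the highest Zbtb16, Tsc22d3 and Hsd11b1. The part of the other cells in these levels was not tested.

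**Figure D4:**
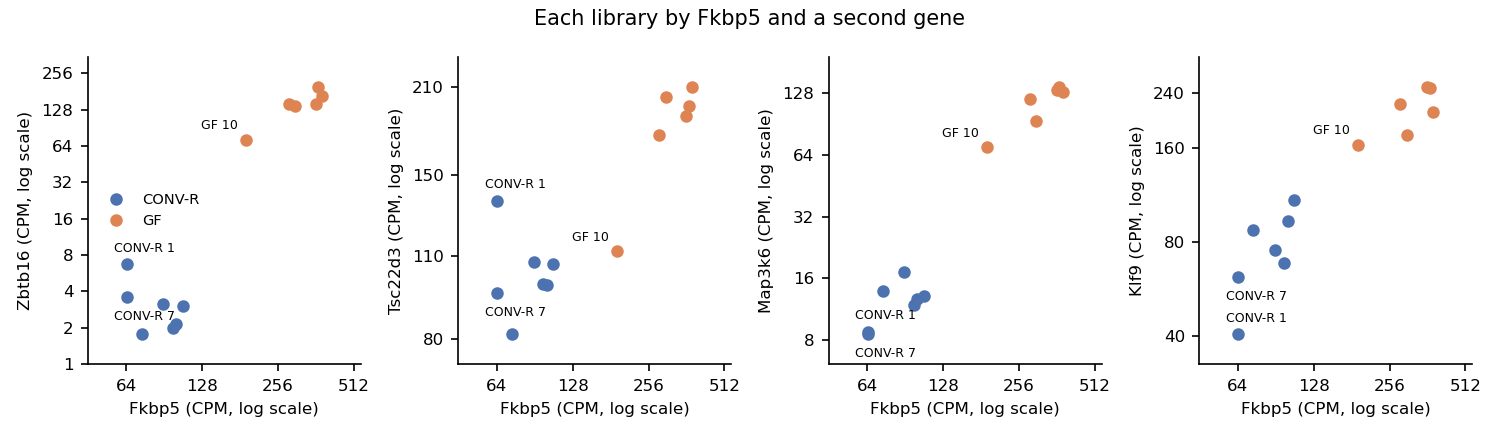
Zbtb16, Tsc22d3, Map3k6 and Klf9 against Fkbp5 in each library (CPM, log scales), 1 point per library. GF 10 lies lowest among the GF points in all 4 panels, with Fkbp5 at 192 CPM, and CONV-R 1 and 7 share the lowest Fkbp5, 64.5 CPM.

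With the group means removed, the genes whose log2 CPM followed each of 3 genes most closely over the 13 libraries were listed by Pearson's r, as a description. Those nearest to Nr3c1 were Fbxl5 (r = 0.936), Arid2 (0.936), Mkln1 (0.922), Stk35 (0.921) and Klf6 (0.915). Those nearest to Fkbp5 were Tmed10 (r = 0.912), Slc10a6 (0.871), Maml1 (0.868), Gdi2 (0.868) and Sgms1 (0.860). Hsd11b1 was followed by Cat (r = 0.977), Acat3 (0.976), Ces1e (0.975), Adk (0.975) and Aldh8a1 (0.974), several of them abundant in hepatocytes. Among the 6 targets higher in GF the closest pair was Zbtb16 and Tsc22d3 (r = 0.861), followed by Fkbp5 and Map3k6 (0.790), while Zbtb16 and Klf9 gave -0.32. For both Zbtb16 and Tsc22d3, CONV-R 1 was the highest CONV-R library and GF 10 the lowest GF library. Their r was not computed without these libraries.

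Other induced targets of the receptor moved both ways. Of 44 listed, 43 were tested, 9 rose in GF, 9 fell and 25 did not pass, beside 11.4% of all genes that rose and 12.7% that fell. The list's median log2 fold change was 0.14. Slc10a6, a transporter of sulfated steroids, rose from 3.93 ± 1.89 CPM (SD, n = 7) to 33.2 ± 10.0 CPM (SD, n = 6), a log2 fold change of 3.05 ± 0.34 (SE, edgeR adjusted p = 8.01e-05). Fam107a, an actin-binding protein, rose from 0.374 ± 0.267 to 4.32 ± 1.496 CPM, by 3.42 ± 0.41 (adjusted p = 1.39e-04). Its counts were 2 to 25 in CONV-R and 71 to 149 in GF, so it passed the filter on low counts through the GF libraries. Glul, glutamine synthetase, rose by 1.29 ± 0.12 (adjusted p = 3.02e-05), the clock gene Per1 by 1.26 ± 0.21 (adjusted p = 0.00148), the cell cycle inhibitor Cdkn1a by 0.99 ± 0.15 (adjusted p = 8.27e-04) and Pdk4, a brake on pyruvate oxidation, by 0.90 ± 0.13 (adjusted p = 6.02e-04). Cdkn1c, Lpin1 and Per2 also rose. With the hepatocyte covariate the log2 fold change was 1.93 for Slc10a6 and 2.14 for Fam107a, which still passed (edgeR adjusted p = 0.0215 and 0.0454), and 0.48 for Pdk4 and 0.69 for Cdkn1a, which did not (edgeR adjusted p = 0.120 and 0.132). In GF 8 to 13 every library of Slc10a6, Fam107a, Glul, Per1, Cdkn1a and Pdk4 lay above every CONV-R library, beside 5.94% of all genes. Of the genes that fell, Anxa1, Gadd45b and Zfp36 had every GF library below every CONV-R library, beside 4.32%. These genes were named for their small p, which favours such separation. Fam107a, Slc10a6 and Glul were already known from earlier results on these data. Their p-values, and their part in the count and median of this list, are therefore a description only. This list and those below were drawn up with earlier results of these data known. Their other counts and p-values are likewise a description.

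Of the 39 other induced targets with a window none held the canonical element, 4 (Slc10a6, Fam107a, Mt1 and Txnip) held the relaxed form and 6 the hexamer. The windows of Slc10a6 and Fam107a are printed because both genes rose in GF, a choice made with their values known. The match was GAACACGATGTGC in Slc10a6, 163 to 151 bases before the start, and GGACATGGTGTTC in Fam107a, 118 to 106 bases before it. The Fam107a window of a start farther upstream, chr14:8317558-8317857, held none of the motifs. The start used for Fam107a is thus internal. Capitals mark the same motifs as in the windows of Sgk1 and Map3k6.
Slc10a6 (chr5:103629354-103629653, minus strand): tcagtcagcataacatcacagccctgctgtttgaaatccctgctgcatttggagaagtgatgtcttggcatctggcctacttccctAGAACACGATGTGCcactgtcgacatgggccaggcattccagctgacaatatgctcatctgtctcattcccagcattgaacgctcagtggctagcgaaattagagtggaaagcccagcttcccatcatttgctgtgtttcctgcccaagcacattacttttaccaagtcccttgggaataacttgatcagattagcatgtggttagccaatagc
Fam107a (chr14:8309730-8310029, minus strand): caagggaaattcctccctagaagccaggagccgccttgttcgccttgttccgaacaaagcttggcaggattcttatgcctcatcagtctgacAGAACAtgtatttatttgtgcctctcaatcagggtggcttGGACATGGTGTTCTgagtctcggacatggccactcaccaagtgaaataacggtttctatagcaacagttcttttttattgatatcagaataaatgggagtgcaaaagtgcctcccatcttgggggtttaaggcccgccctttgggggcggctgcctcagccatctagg

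Among those that fell, Anxa1, an anti-inflammatory annexin, had a log2 fold change of -1.22 ± 0.19 (SE, edgeR adjusted p = 0.00106) and Zfp36, which destabilises cytokine mRNAs, one of -1.37 ± 0.25 (adjusted p = 0.00241). The value was -1.03 ± 0.18 for the stress gene Gadd45b (adjusted p = 0.00225), -0.63 ± 0.14 for the protease gene Adamts1 (adjusted p = 0.00824), -2.85 ± 0.74 for Lcn2, a neutrophil granule protein (adjusted p = 0.0147), and -1.27 ± 0.35 for Acsl1, which activates fatty acids (adjusted p = 0.0193). Maoa, Il1r2 and Irs2 also fell. Several are also made by neutrophils or hepatocytes or are induced at once by stress, and the markers of these fell in the same libraries. With the hepatocyte covariate the values were 0.34 for Acsl1, -0.52 for Gadd45b, -0.91 for Zfp36 and -1.53 for Lcn2, and none of the 4 passed (edgeR adjusted p 0.214 to 0.591). Against number 10 alone Lcn2 was at -0.68, Adamts1 at -0.56 and Acsl1 at -1.31, and none of the 3 passed (edgeR adjusted p = 0.152, 0.0616 and 0.0548). The Lcn2 call was also lost with limma-voom and without CONV-R 6 and 7, at -1.34 and -1.48. Acsl1 was at -0.65 with limma-voom and at -0.60 without CONV-R 1 and 7, where it passed. The part of the other cells was not tested.

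Of 26 inflammatory genes that the receptor is known to repress, 21 were tested, 10 fell in GF, beside 12.7% of all genes, 1 rose, beside 11.4%, and 10 did not pass. The list's median log2 fold change was -1.04. The cytokine genes Tnf and Il1b had log2 fold changes of -1.86 ± 0.24 (SE, edgeR adjusted p = 2.53e-04) and -2.75 ± 0.57 (adjusted p = 0.00534). The value was -2.45 ± 0.49 for the gelatinase gene Mmp9 (adjusted p = 0.00425), -1.65 ± 0.35 for Nos2, inducible nitric oxide synthase (adjusted p = 0.00547), -2.50 ± 0.57 for Ptgs2, cyclooxygenase (adjusted p = 0.00801), and -1.34 ± 0.32 for the monocyte chemokine gene Ccl2 (adjusted p = 0.00993). This list was drawn up with earlier results of these data known, and Ptgs2 itself was among them. The counts, median and p-values of the list are therefore a description only. Cxcl2, Mmp13, Ccl3 and Ccl4 fell too, and the adhesion molecule Vcam1 rose by 0.52 ± 0.15 (adjusted p = 0.0212; 0.0529 without GF 13). Neutrophil and monocyte markers, whose cells express several of these genes, summed to 631 to 2860 CPM in CONV-R and 444 to 670 CPM in GF, and their part was not tested. With the hepatocyte covariate 2 of these genes fell and none rose, beside 240 that fell and 265 that rose of all 13915 genes tested. Mmp9, Il1b, Ptgs2 and Ccl2, at -1.05, -1.65, -1.58 and -0.50, did not pass in that model (edgeR adjusted p 0.375 to 0.612). Against number 10 alone the values were -1.42 for Mmp9, -1.43 for Il1b and -1.55 for Ptgs2, which passed, and -0.81 for Ccl2, which did not (edgeR adjusted p = 0.0807). Nos2 and Vcam1 did not pass against number 9 alone (edgeR adjusted p = 0.0546 and 0.206), nor Vcam1 with the hepatocyte covariate (edgeR adjusted p = 0.120).

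**Figure D5:**
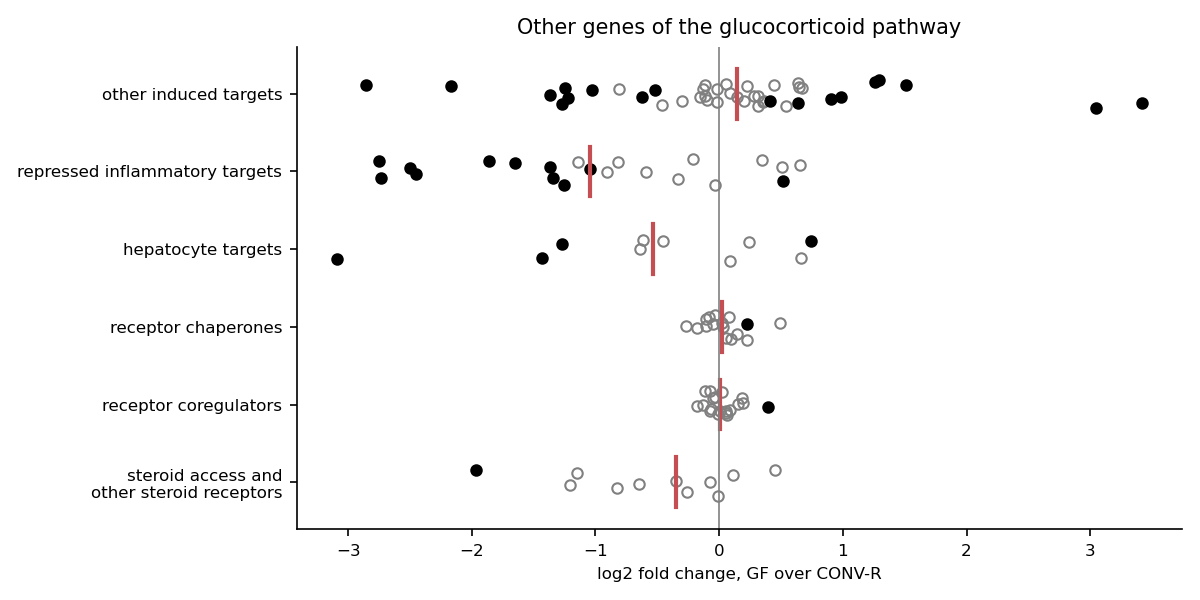
Log2 fold changes, GF over CONV-R, of the tested genes of 6 lists around the receptor, 1 point per gene, filled where the edgeR adjusted p was under 0.05 and open otherwise. Red bars are list medians, and height within a list carries no value. The inflammatory targets lie mostly below 0, with a median of -1.04, the chaperones and coregulators lie near 0, and the other induced targets spread to both sides.

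Chaperones keep the unbound receptor ready for hormone. Of 16 chaperones and co-chaperones of the receptor complex 1 passed, beside 24.1% of all genes: Dnajb1, which rose by 0.23 ± 0.07 (SE, edgeR adjusted p = 0.0331), and this call was lost in 13 of 24 alternatives, among them those without CONV-R 2, 4, 5, 6 or 7 and without GF 9, 11, 12 or 13 (edgeR adjusted p 0.0519 to 0.0853). The median log2 fold change was 0.03 for the chaperones and 0.00 for 19 coregulators of the receptor. In the model with the hepatocyte covariate 6 chaperones were higher, beside 265 of all 13915 genes tested. With library totals in place of the scaling, which moves the median of all genes to -0.11, 2 chaperones were lower and none higher. Of all 13915 genes tested, 2773 were then lower and 971 higher.

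Of 11 genes tested for steroid access and other steroid receptors 1 passed, beside 24.1% of all genes: Serpina6, which encodes the glucocorticoid carrier of plasma and is made by hepatocytes, fell by 1.97 ± 0.56 (SE, edgeR adjusted p = 0.0234; 0.0548 without GF 9 and 0.0537 without GF 11). With the hepatocyte covariate the value was 0.87 ± 0.34 and did not pass (edgeR adjusted p = 0.180). The mineralocorticoid receptor gene Nr3c2 was at 14.4 ± 3.10 CPM (SD, n = 7) in CONV-R and 11.3 ± 1.003 CPM (SD, n = 6) in GF and did not pass (edgeR adjusted p = 0.0989). H6pd, which supplies the cofactor of the enzyme encoded by Hsd11b1, was at 111 ± 9.10 and 106 ± 6.07 CPM and did not pass (edgeR adjusted p = 0.402). Of 10 metabolic targets known from hepatocytes, where 12.7% of all genes fell and 11.4% rose, 3 fell, G6pc with a log2 fold change of -3.09 ± 0.43 (SE, edgeR adjusted p = 4.90e-04), Igfbp1 with -1.27 ± 0.31 (adjusted p = 0.0111) and Cps1 with -1.43 ± 0.39 (adjusted p = 0.0181), and Sds rose by 0.74 ± 0.22 (adjusted p = 0.0248). The Sds call was lost without GF 9, GF 10 or GF 13 (edgeR adjusted p = 0.0536, 0.0597 and 0.0570). Neither G6pc, at -1.20, nor Igfbp1, at -0.52, passed with the hepatocyte covariate (edgeR adjusted p = 0.0554 and 0.578). The list had a median log2 fold change of -0.53. The hepatocyte markers fell in the same libraries, and with their level as a covariate 3 of the 10 genes were higher and none lower, with a median of 0.84. In that model 265 of all 13915 genes tested were higher and 240 lower.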

How the data were processed

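RNA of liver endothelial cells was sequenced in 13 libraries, 7 CONV-R and 6 GF, with a stranded mRNA kit on 1 instrument type, per the labels' protocols. The authors deposited raw counts per gene symbol. FastQC 0.11.9, STAR 2.7.5a, featureCounts 2.0.1 and DESeq2 1.42.1 were used with mm10, per the submitters' processing notes. The annotation is not given in the sources used here, nor is the strand setting. Any gene that overlaps another, such as Hsd11b1 (Lamb3) and Dusp1 (Ergic1), could therefore share reads.

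The model was fitted to the deposited counts in edgeR 4.0.16 (R 4.3.3): filterByExpr (minimum count 10, minimum total 15), TMM scaling, robust quasi-likelihood fit, Benjamini-Hochberg adjustment over all genes tested and a threshold of 0.05. Standard errors were derived from the F statistic (the size of the log2 fold change over its root). CPM refer to TMM-scaled libraries, marker sums to unscaled totals. Exon lengths are the exon union of GENCODE M21. Correlations use log2 CPM after adding 0.5, with exact permutation. The models were tested on simulated data. DESeq2 1.42.0, limma 3.58.1 voom, other filters and scalings, a hepatocyte covariate and left-out libraries were alternatives.

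The 10 genes and all lists were chosen with earlier results of these data known. In each list the rule named up to 6 genes of smallest p past the threshold in each direction, or the most abundant where none passed. It also named the 5 genes nearest to Nr3c1, Fkbp5 and Hsd11b1. Cdkn1c, Lpin1, Per2, Maoa, Il1r2, Irs2, Cxcl2, Mmp13, Ccl3, Ccl4, Nr3c2, H6pd, Mt1 and Txnip were named beyond it, after their values were seen. All pairs of libraries within a group differed by more than sampling noise: chi-square over its degrees of freedom was 14.1 or more, using genes with at least 40 counts in the pair. A result of the coregulator list is not reported here.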

Additional observations from a re-analysis of the deposited data

Results flagged for a closer look

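A library whose gap to its nearest neighbour was large for the range of its group was looked for in 36 genes and 2 groups. Of 72 combinations 9 had one, or 12.5%. The cutoff flags about 1 in 20 for independent, normally distributed values. These are CPM on a linear scale, and the genes share the same libraries, so the share expected by chance is not known here. Among the 10 genes, Nr3c1 was at 266 CPM in CONV-R 7 (the others 201 to 227), Zbtb16 at 6.74 CPM in CONV-R 1 (the others 1.76 to 3.58) and Tsc22d3 at 112 CPM in GF 10 (the others 175 to 210). Among the listed targets, Adamts1 was at 68.2 CPM in CONV-R 1 (121 to 153) and at 93.7 CPM in GF 9 (70.6 to 79.2). Mmp9 was at 177 CPM in CONV-R 7 (23.1 to 69.8), the library with the highest neutrophil marker sum. Gadd45b was at 6.87 CPM in GF 11 (5.33 to 5.86), Ccl2 at 2.60 CPM in GF 11 (1.05 to 1.58) and Dnajb1 at 43.4 CPM in CONV-R 1 (31.98 to 36.2).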

How the results depend on the processing

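No paired analysis was possible because the groups share no replicate number. The count of the 10 genes past the threshold upward was 6 in each of 25 alternatives, which is no support for them, since they were chosen on this comparison. With the hepatocyte covariate, Acsl1 turned to 0.34, Cps1 to 0.36 and Serpina6 to 0.87, none of them past the threshold, and Pdk4, Cdkn1a, Mmp9, Il1b, Ptgs2 and G6pc no longer passed; of 26 named list genes 6 passed in every alternative. The groups' hepatocyte levels do not overlap, so this covariate is partly the group itself. The cause of the moves was not tested.

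Genes called, 3357, became 1208 at a threshold of 0.01, 505 with the hepatocyte covariate and 1978 against number 10 alone, and 2221 to 3737 with 1 library left out. Other induced targets, 18, became 11 at 0.01 and 8 with the covariate (13 to 19 with 1 library left out). Repressed targets, 11, became 6 at 0.01, 2 with the covariate and 7 against number 10 (9 to 14). Hepatocyte targets, 4, became 1 at 0.01 and 2 against number 10 (3 to 4). Chaperones, 1, became 0 at 0.01, against number 10 and without CONV-R 6 and 7, 2 with DESeq2 or library totals, 3 against number 9, 5 with limma-voom, and 6 with the covariate or without CONV-R 1 and 7 (0 to 3). Coregulators, 1, became 0 with the covariate, 2 with DESeq2, the stricter filter or against number 9, 4 with library totals or without CONV-R 1 and 7, and 5 with limma-voom (1 throughout with 1 library left out). Steroid access genes, 1, became 0 at 0.01, with the stricter filter, against number 10 and without CONV-R 6 and 7, 2 with library totals, 4 with DESeq2 and 6 against number 9 (0 to 3). Between the number groups, 0 became 144 with DESeq2 and 1292 with limma-voom (0 to 690), and 0 of the 10 genes in each. Depth was 18276439 to 32869515 counts in the number 10 libraries and 7590320 to 15523860 in the number 9 libraries. Depth and number therefore cannot be told apart in that comparison. The number of genes called was 0 without CONV-R 6 too, but every number 9 library left was still shallower than every number 10 library.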
